A study of Mus musculus with 8 samples.

Results

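The neurotrophins and their receptors examined here were Bdnf and Ntf3, which encode the ligands, Ntrk2 and Ntrk3, which encode the receptor kinases TrkB and TrkC, and Ngfr, which encodes the shared receptor p75NTR. Members were found by matching these 5 gene symbols to the probe annotation of the array, and 4 of them had a probe among the 19321 gene symbols of the annotation used here. Each of the 4 had 1 probe, so no choice between probes was needed. Ntf3 was not analysed here, since no probe in the annotation was paired with it. Total RNA of the dorsal hippocampal dentate gyrus (DG) was measured on 8 single-colour Cy5 arrays. Of these, 4 came from wild-type mice (WT) and 4 from mice without Cav3.1, a T-type calcium channel (Cav3.1 KO). The mice were males aged 8 to 12 weeks. Both groups are labelled C57BL/6J. The sources used here give neither how the Cav3.1 allele was made nor whether each array had its own mouse, so the p-values describe spread between samples that may be technical.

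Neurotrophins are secreted growth factors that are cleaved from larger precursors. The mature forms bind Trk receptor tyrosine kinases, BDNF mainly TrkB and neurotrophin-3 mainly TrkC, and signal through the MAP kinase, PI3 kinase and phospholipase C gamma routes, while p75NTR binds all neurotrophins and, with sortilin, their precursors. In the dentate gyrus, granule neurons make BDNF and carry it into their mossy fibre axons, and BDNF transcription is driven by neuronal activity and calcium entry.

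Bdnf has several transcription starts, each with its own first exon spliced to a common coding exon. RefSeq lists 12 curated transcripts of Bdnf on chromosome 2, and its promoter table for GRCm38.p6 holds 7 starts. These 300-base windows were searched on both strands for TGACGTCA (the cAMP response element, CRE), TCACGTCA (a CRE variant), TATTTCGA (the core of the calcium response element CaRE1) and CACGTG (an E-box). A match was found at 1 of the 7 starts, which held both the CRE variant and the CaRE1 core. This window, on the plus strand at chr2:109692186-109692485, contains the start known as that of exon IV, the best-studied activity-dependent Bdnf promoter. It is shown because Bdnf is the member whose groups did not overlap, with both matches in capitals.

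Bdnf promoter (RefSeq, GRCm38.p6): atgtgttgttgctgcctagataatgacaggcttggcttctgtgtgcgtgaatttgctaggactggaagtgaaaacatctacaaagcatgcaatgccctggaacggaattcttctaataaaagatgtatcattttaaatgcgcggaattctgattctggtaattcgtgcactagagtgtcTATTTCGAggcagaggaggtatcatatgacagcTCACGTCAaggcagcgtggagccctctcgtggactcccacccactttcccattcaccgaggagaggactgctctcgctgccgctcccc

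The CRE variant occurred in 0.441% and the CaRE1 core in 0.11% of the 32851 promoter windows of that table. The CRE was present in 1.79% and the E-box in 7.15%. A match is a description of letters and not a measured binding site. The annotation pairs the Bdnf probe with 1 of the 12 transcripts, and which starts it reports was not tested.

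Values are log2 intensities after background correction and quantile normalisation, and a difference is the Cav3.1 KO mean less the WT mean. The 4 members lie in a comparison of 21150 probes, of which 61, or 0.288%, passed a limma adjusted p of 0.05. None of the 4 members passed. Spot intensities of blank positions averaged 53.0 to 63.4 per array, and 85.4% to 93.0% of probes were brighter than the 95th percentile of the blank spots. Markers of dentate granule neurons were present, with 12 of 12 listed genes detected on all 8 arrays. The Cacna1g probe, for the gene that encodes Cav3.1, had WT and Cav3.1 KO means of 6.54 ± 0.0814 and 6.46 ± 0.0716 (SD, n = 4, limma adjusted p 0.816). The sources used here do not place it relative to the deletion, so it does not check the genotype.

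Of the 4 measured members, only Bdnf had groups that did not overlap. The normalised Bdnf values were 7.81, 8.26, 7.89 and 8.04 on WT replicates 1 to 4. They were 7.70, 7.24, 7.47 and 7.55 on Cav3.1 KO replicates 1 to 4. All 4 WT arrays thus lay above all 4 Cav3.1 KO arrays, with the highest value on WT replicate 2 and the lowest on Cav3.1 KO replicate 2. The means were 8.00 ± 0.197 (SD, n = 4) and 7.49 ± 0.191 (SD, n = 4). The closest pair, WT replicate 1 and Cav3.1 KO replicate 1, were separated by less than 1 SD of either group.

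The Bdnf difference was -0.51 (SE 0.12, 95% interval -0.783 to -0.234), or 0.703 of the WT level on this scale. By limma its unadjusted p was 0.00268 and its adjusted p over all probes was 0.207, so it did not pass the threshold. The exact two-sided permutation p was 0.0286, the smallest that 4 against 4 arrays allow. Over the whole table, 4.95% of probes had groups that did not overlap, 2.53% with lower values in Cav3.1 KO, and 1.30% had a p at or under that of Bdnf. A difference at least this far below 0 was found for 0.0757% of probes. This share depends on brightness, since the offset of the background correction shrinks differences of dim probes. The median probe had a spot intensity of 80.9 to 94.3 per array, while Bdnf spots were at 165.6 to 340.9. Probes of like brightness were not compared.

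**Figure D1:**
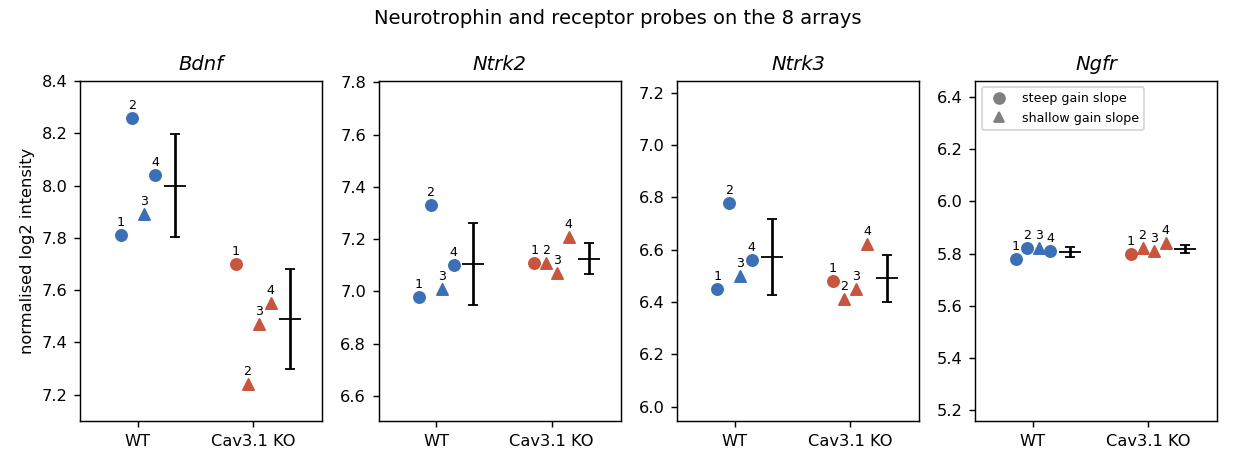
Normalised log2 intensity (vertical axis) of the Bdnf, Ntrk2, Ntrk3 and Ngfr probes on each array, by genotype; numbers are replicates, marker shapes the 2 sets of arrays by the slope between scan gains, and bars the mean and SD of 4 arrays. The panels have axes of equal length; Bdnf lies between 7.81 and 8.26 in WT and between 7.24 and 7.70 in Cav3.1 KO, while the groups of the other genes overlap.

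The spot intensities show the size of the Bdnf difference before normalisation. After subtraction of the mean blank spot of the same array, the WT and Cav3.1 KO means of Bdnf were 212 ± 51.3 and 124 ± 15.1 (SD, n = 4). The wider WT spread reflects WT replicate 2, at 287 against 173 to 204 on the other WT arrays. The log2 difference after blank subtraction was -0.679 (SE 0.171, limma adjusted p 0.277). In the value table the authors deposited, Bdnf ran from 114.3 to 179.2 on the WT arrays and from 66.0 to 99.3 on the others, which is -0.745 as a log2 difference (SE 0.173, limma adjusted p 0.243). Lower values in Cav3.1 KO were thus found on each of these scales, and none passed the threshold.

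The arrays also fell into 2 sets by a value in the file headers, and the sources used here do not say what the sets stand for. The headers give a straight line between the spot medians at scan gains 1 and 3, and its slope was 0.244 to 0.247 on WT replicates 1, 2 and 4 and Cav3.1 KO replicate 1, but 0.235 to 0.236 on WT replicate 3 and Cav3.1 KO replicates 2, 3 and 4. The blank spots averaged 53.0 to 56.2 in the first set and 59.7 to 63.4 in the second. This split therefore lies unevenly across the genotypes. With the set as a block, the Bdnf difference was -0.401 (SE 0.123, limma adjusted p 0.358). Within the first set, the single Cav3.1 KO array and the mean of 3 WT arrays differed by -0.335 for Bdnf. Within the second set, the mean of 3 Cav3.1 KO arrays and the single WT array differed by -0.467. The signs follow from the lack of overlap over all arrays, so only the sizes add information. Separately, WT replicate 3 and Cav3.1 KO replicate 4 carry chip numbers apart from the rest. The Bdnf difference was -0.565 without them and -0.34 between these 2 arrays.

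**Figure D2:**
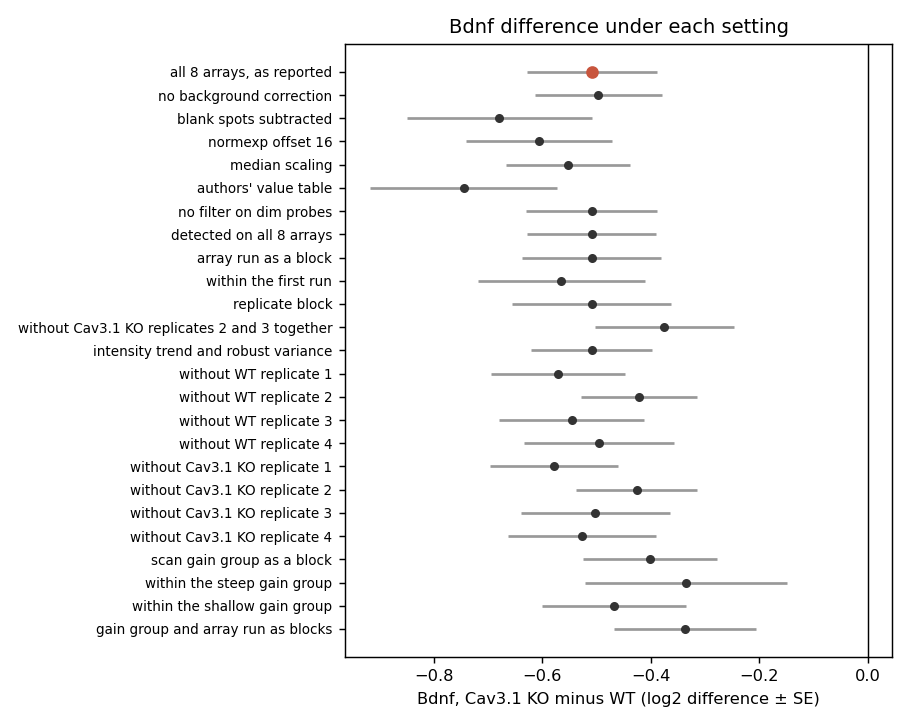
Bdnf difference, Cav3.1 KO minus WT, on the log2 scale (horizontal axis) for the reported fit (red) and 24 other settings (rows); bars are ± 1 SE from limma. All values lie below 0, from -0.745 with the authors' value table to -0.335 within the set of steep gain slope. Since the groups did not overlap, settings that only left out or blocked arrays could not give another sign.

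Bdnf is made by several neurons of the hippocampus, so the markers of those cells are given beside it. In bulk tissue, fewer cells of a type and less RNA per cell cannot be told apart. Of 13 markers of CA pyramidal neurons, 11 were lower in Cav3.1 KO and none passed by limma; all but Cpne4 were detected on every array. Summed blank-subtracted spot intensities, here and for the lists below, are not normalised between arrays and so also carry array brightness. For the CA pyramidal neuron markers the sum ran from 5670 to 7600 in WT and from 3970 to 6490 in Cav3.1 KO. The mean log2 level of these markers, which is normalised, differed by -0.139 (exact permutation p 0.0571). Of 12 dentate granule neuron markers, 8 were lower and 1, C1ql2, passed, with sums from 1360 to 1920 on WT arrays and from 1190 to 1940 on the others, and a mean difference of -0.077 (exact permutation p 0.114). Mossy cell and interneuron markers went the other way by mean log2 level, while their sums, which are not normalised between arrays, overlapped. Of 7 tested mossy cell markers 2 were lower, with sums from 2710 to 3660 in WT and from 2370 to 3660 in Cav3.1 KO and a mean difference of 0.118 (exact permutation p 0.114); Glp1r was not detected on every array. Of 8 interneuron markers 2 were lower, with sums from 3190 to 4690 and from 3130 to 4830 and a mean difference of 0.114 (exact permutation p 0.257). Among non-neuronal cells, 8 of 8 microglia markers were lower, with sums from 2380 to 3170 and from 2130 to 2560 and a mean difference of -0.109 (exact permutation p 0.0857). None of the mossy cell, interneuron and microglia markers passed by limma. Of 8 meningeal and perivascular fibroblast markers 6 were lower, with a mean difference of -0.127 (exact permutation p 0.286). Of 10 oligodendrocyte lineage markers 7 were lower, with a mean difference of -0.081 (exact permutation p 0.457). Of 10 endothelium and pericyte markers 4 were lower and 1 passed by limma, with a mean difference of -0.062 (exact permutation p 0.2). Markers of thalamus and habenula, which are neighbouring tissue, were lower for 2 of 14 tested genes, with sums from 711 to 1690 on WT arrays and from 890 to 2700 on the others. Tcf7l2 was the listed marker not detected on every array. The mean log2 level of this list differed by 0.243 (exact permutation p 0.286). Cav3.1 KO replicates 2 and 3 had list means of 7.33 and 7.29, while WT had 6.77 ± 0.188 (SD, n = 4). Cav3.1 KO replicates 1 and 4 had 6.78 and 6.64, inside the WT range of 6.585 to 6.976. Without Cav3.1 KO replicates 2 and 3 the Bdnf difference was -0.375 (SE 0.128, limma adjusted p 0.47). Of 8 tested choroid plexus markers, 7 were lower, with sums from 5890 to 43200 in WT and from 295 to 36400 in Cav3.1 KO. Their mean difference was -0.35 (exact permutation p 0.571), with list means of 8.64 on WT replicate 2 and 8.48 on Cav3.1 KO replicate 2. Of 6 ependyma markers, 4 were lower, with sums from 309 to 577 and from 146 to 705. Their mean difference was -0.069 (exact permutation p 0.743). The part of tissue content in the Bdnf difference was not tested.

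Ntrk2 encodes TrkB, the receptor of BDNF, which neurons make in a full-length form with a kinase domain and astrocytes mainly in a truncated form. The Ntrk2 values were 6.98, 7.33, 7.01 and 7.10 on WT replicates 1 to 4. They were 7.11, 7.11, 7.07 and 7.21 on Cav3.1 KO replicates 1 to 4. The Cav3.1 KO values all lay inside the WT range. The difference was 0.02 (SE 0.0741, 95% interval -0.149 to 0.191), with a limma adjusted p of 0.995 and an exact permutation p of 0.857. Its sign was not stable: it was negative with median scaling (-0.006) and with the authors' value table (-0.023). RefSeq lists 3 curated Ntrk2 transcripts, and which forms the probe reports was not tested. The WT and Cav3.1 KO means of astrocyte markers were 9.12 ± 0.0167 and 9.15 ± 0.0396 (SD, n = 4, exact permutation p 0.229). Of these 11 markers 4 were lower in Cav3.1 KO, and 1 of the 11 passed by limma.

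Ntrk3 encodes TrkC, the receptor of neurotrophin-3. The Ntrk3 values were 6.45, 6.78, 6.50 and 6.56 on WT replicates 1 to 4. They were 6.48, 6.41, 6.45 and 6.62 on Cav3.1 KO replicates 1 to 4. The groups overlapped, and as for Bdnf and Ntrk2 the highest value was that of WT replicate 2. The difference was -0.08 (SE 0.0774, 95% interval -0.259 to 0.097), with a limma adjusted p of 0.942 and an exact permutation p of 0.429. Without WT replicate 2 it was -0.011. With the gain set as a block it was -0.058.

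Across the 8 arrays, Ntrk2 and Ntrk3 followed each other, with a Pearson r of 0.86 for their levels and 0.96 once the group means were removed. The latter r was 0.78 for Bdnf with Ntrk3 and 0.71 for Bdnf with Ntrk2. These points share the dissection and the hybridisation of each array, and WT replicate 2 was the highest array for all 3 genes. Without that array the values in the same order were 0.91, 0.59 and 0.43, and the r of the levels of Bdnf and Ntrk2 was -0.41 against 0.30 with it. They are a description of 8 arrays.

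**Figure D3:**
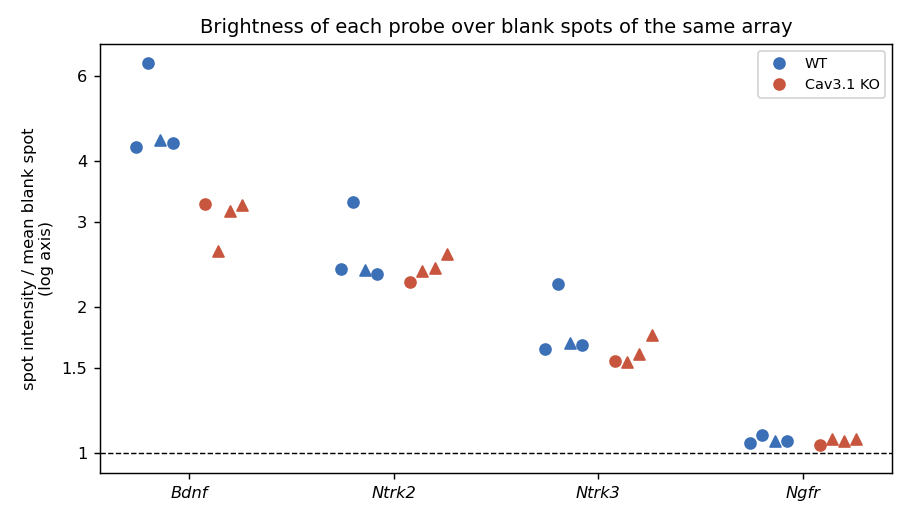
Spot intensity divided by the mean blank spot of the same array (vertical axis, log scale) for the 4 probes; circles and triangles are the sets of steep and shallow gain slope, and the dashed line is the blank level. Bdnf spots were 2.61 to 6.36 times, Ntrk2 2.26 to 3.29 times, Ntrk3 1.54 to 2.23 times and Ngfr 1.04 to 1.09 times the blank mean; brightness of different probes is not a comparison of transcript levels.

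Ngfr encodes p75NTR, a member of the TNF receptor family that is abundant in basal forebrain cholinergic neurons, whose axons reach the dentate gyrus while their cell bodies lie outside it. Its spot was close to the blank level on every array. The Ngfr spot intensities were 55.4, 58.2, 63.6 and 58.6 on WT replicates 1 to 4. They were 58.7, 67.5, 63.4 and 64.8 on Cav3.1 KO replicates 1 to 4. These were 2.41 to 4.60 units above the mean blank spot, and 0.621% to 3.14% of the blank spots of an array were as bright or brighter. The probe therefore counted as detected on all 8 arrays only narrowly, by 0.561 to 2.88 units over the 95th percentile of blank spots. The normalised means were 5.81 ± 0.0182 in WT and 5.82 ± 0.016 in Cav3.1 KO (SD, n = 4). The difference of 0.007 (SE 0.0229, limma adjusted p 0.995, exact permutation p 0.657) changed sign with the gain set as a block (-0.004). Listed markers of basal forebrain cholinergic neurons, 5 of which were measured, summed to blank-subtracted intensities from 84.8 to 108 on WT arrays and from 73.8 to 112 on the others. A change in Ngfr was not detectable at this signal, and no fold is given.

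Ngfr lies on chromosome 11, as does Cacna1g, with 32 protein-coding genes between them in the RefSeq gene table. The 24 of them that were tested were examined because a deletion made in one strain and kept on another can carry neighbouring alleles along. By limma 0 of the 24 passed, and 12 were higher and 12 lower. An unadjusted p under 0.05 was found for 3 of the 24, all higher in Cav3.1 KO, and for 8.10% of all probes. The smallest p was that of Samd14, with WT and Cav3.1 KO means of 6.67 ± 0.0623 and 6.83 ± 0.0032 (SD, n = 4, difference 0.16, limma adjusted p 0.161). Xylt2, an enzyme of proteoglycan synthesis, differed by 0.20 (adjusted p 0.379) and Spop, a ubiquitin ligase adaptor, by 0.12 (adjusted p 0.61).

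The wider pathway was described with lists of genes by role, chosen with earlier results of these data known. They hold 212 different genes, of which 180 were tested, and by limma 0 passed. Because of that choice, the share of a list beside that of all probes is a description and not a test. In the ligand and processing list, 14 genes were tested, 8 were higher and 6 lower, with a median difference of 0.008 against -0.0008 over all probes. An unadjusted p under 0.05 was found for 3 of them, Bdnf itself and 2 genes of proteolysis, or 21.4% against 8.10% of all probes. Plat encodes tissue plasminogen activator, which starts the cascade that cleaves proBDNF. The Plat values were 7.58, 7.66, 7.52 and 7.52 on WT replicates 1 to 4. They were 7.76, 7.91, 7.91 and 7.94 on Cav3.1 KO replicates 1 to 4. All Cav3.1 KO values lay above all WT values, opposite in direction to Bdnf, with a difference of 0.31 (SE 0.0494, adjusted p 0.0653). Without Cav3.1 KO replicate 1 the adjusted p of Plat was 0.03, and with the gain set as a block it was 0.184. Pcsk1, a prohormone convertase of regulated secretory granules, differed by 0.16 (SE 0.032, adjusted p 0.13). Ntf5, the gene of the second TrkB ligand neurotrophin-4, was named after its values were seen and differed by -0.02 (SE 0.0474).

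Of 19 receptors and co-receptors tested, 12 were higher and 7 lower, with a median of 0.017. By limma 0 passed and 3, or 15.8%, had an unadjusted p under 0.05, against 8.10% of all probes. They were Ptprf, a receptor phosphatase (0.12, SE 0.0283), Lrig1, a membrane protein that restrains growth factor receptors (0.39, SE 0.104), and Sorcs2, a sortilin family receptor that pairs with p75NTR (0.15, SE 0.0418). The groups of these 3 genes did not overlap, as was the case for 4.95% of all probes. Their adjusted p-values were 0.211, 0.268 and 0.319.

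Downstream of the Trk receptors, 54 adaptors and signalling genes were tested, 33 higher and 21 lower, with a median of 0.009. By limma 0 passed and 7, or 13%, had an unadjusted p under 0.05, against 8.10% of all probes. Hap1, which takes part in the transport of BDNF vesicles and the trafficking of Trk receptors, had the smallest p, with values of 8.52, 8.70, 8.29 and 8.46 on WT replicates 1 to 4. They were 9.25, 8.86, 8.76 and 8.95 on Cav3.1 KO replicates 1 to 4. The lowest Cav3.1 KO value of Hap1 was above the highest WT value. Its difference was 0.46 (SE 0.117, adjusted p 0.248), and 0.63 with the gain set as a block (adjusted p 0.051). The adaptor gene Crk differed by 0.21 (SE 0.0565) and the dynein light chain gene Dnal4 by -0.25 (SE 0.0698).

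For p75NTR signalling, 22 genes were tested, 11 higher and 11 lower, with a median of -0.003. By limma 0 passed and 2 had an unadjusted p under 0.05, or 9.09% against 8.10% of all probes. Psen2, a gamma-secretase subunit, had WT and Cav3.1 KO means of 6.64 ± 0.0201 and 6.78 ± 0.0135 (SD, n = 4), differing by 0.14 (SE 0.0229, adjusted p 0.0715) with no overlap. The small GTPase gene Rhoa differed by 0.14 (SE 0.051) and the kinase gene Irak1 by -0.15 (SE 0.0669).

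**Figure D4:**
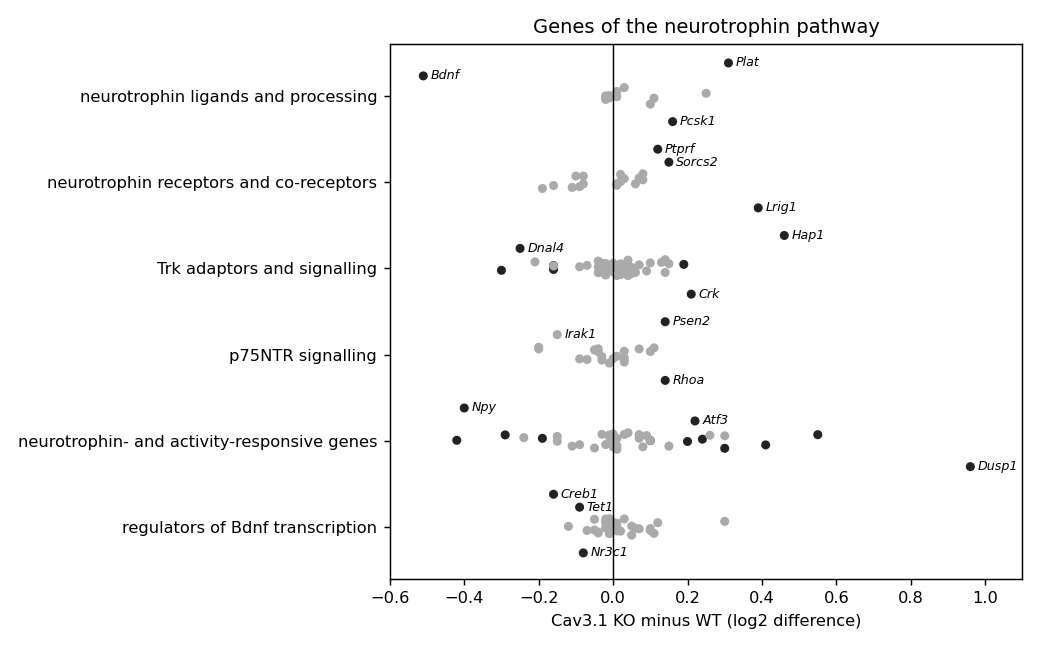
Log2 difference, Cav3.1 KO minus WT (horizontal axis), of every tested gene of 6 lists (rows, spread vertically for legibility); black points have an unadjusted limma p under 0.05 and the 3 genes with the smallest p in each list are named. None passed after adjustment; Bdnf (-0.51) is the lowest and Dusp1 (0.96) the highest point.

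Among 39 tested genes that respond to neurotrophins or neuronal activity, 23 were higher and 16 lower, with a median of 0.008. By limma 0 passed, while 12, or 30.8%, had an unadjusted p under 0.05, against 8.10% of all probes. Of the 12, 8 were higher and 4 lower, where all probes gave 3.76% higher and 4.34% lower. Since the list was chosen with earlier results of these data known, this share is no test of enrichment. Dusp1, a phosphatase that switches off MAP kinases, had the largest difference of any gene in these lists, 0.96 (SE 0.197, adjusted p 0.147). Its values were 7.29, 7.51, 7.26 and 7.24 on WT replicates 1 to 4. They were 8.69, 8.63, 7.98 and 7.84 on Cav3.1 KO replicates 1 to 4. All Cav3.1 KO arrays were above all WT arrays, with replicates 1 and 2 the highest. The stress-induced transcription factor gene Atf3 differed by 0.22 (SE 0.0476, adjusted p 0.162), and 0.042 was its adjusted p in limma with an intensity trend and robust variance. The Atf3 probe was dim and was detected on 7 of 8 arrays. Its WT mean of 5.82 was close to the 5.81 of Ngfr, near the blank level, which limits both p-values.

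Npy, which encodes neuropeptide Y, was lower like Bdnf. The Npy values were 9.33, 9.51, 9.46 and 9.43 on WT replicates 1 to 4. They were 9.16, 8.80, 9.09 and 9.09 on Cav3.1 KO replicates 1 to 4, so the groups did not overlap. The difference was -0.40 (SE 0.0787, adjusted p 0.13). Fos, Nr4a1 and Arc, immediate early genes named after their values were seen, are often induced together with Bdnf. Fos differed by 0.55 (SE 0.203) and Nr4a1 by 0.41 (SE 0.16), with adjusted p-values of 0.503 and 0.555. Arc ran from 7.12 to 7.65 on the WT arrays and from 6.66 to 8.11 on the Cav3.1 KO arrays, with means differing by 0.04 (SE 0.315). The groups overlapped for all 3. Other genes of this list, also named after their values were seen, were lower. Cort differed by -0.42 (SE 0.0925, limma adjusted p 0.17), and its groups did not overlap. The groups of the next 3 genes overlapped. The immediate early gene Egr1 differed by -0.24 (SE 0.151, limma adjusted p 0.827). Inhba, which encodes an activin subunit, differed by -0.19 (SE 0.0667, limma adjusted p 0.436). The MAP kinase phosphatase gene Dusp6 differed by -0.29 (SE 0.118, limma adjusted p 0.587). Higher genes with an unadjusted limma p under 0.05 also included Spred1 (0.20, SE 0.0574), whose groups did not overlap. The others were Ier2 (0.30, SE 0.0891), Sik1 (0.10, SE 0.0404) and Tac1 (0.24, SE 0.093), with overlapping groups. Their limma adjusted p-values, from Spred1 to Tac1, were 0.322, 0.34, 0.587 and 0.549. The activity-responsive genes thus did not share 1 sign.

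Of 34 tested regulators of Bdnf transcription, 15 were higher and 19 lower, with a median of -0.007. By limma 0 passed and 3, or 8.82%, had an unadjusted p under 0.05, a share near the 8.10% of all probes. They were Creb1, the factor that binds the CRE (-0.16, SE 0.0596), Nr3c1, the glucocorticoid receptor (-0.08, SE 0.0326), and Tet1, a dioxygenase of methylated cytosine (-0.09, SE 0.0355), with adjusted p-values of 0.54, 0.559 and 0.575. Npas4, an activity-induced factor also named after its values were seen, was detected on 1 of 8 arrays and was not tested.

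The genes most like each member were those with the highest Pearson r of normalised values over the 8 arrays, among 17524 probes with established symbols. For Bdnf they were Nudt3 (r = 0.965), the neuronal pentraxin gene Nptx1 (r = 0.963) and Fam136b-ps (r = 0.957), with differences of -0.40, -0.31 and -0.07. For Ntrk3 they were Klhl3 (0.986), the mineralocorticoid receptor gene Nr3c2 (0.983) and Rab8b (0.966). For Ntrk2 they were Nsun7 (0.974), Trappc12 (0.97) and Olfr767 (0.959). For Ngfr, whose values hardly varied, they were Pvr (0.962), Zbtb11os1 (0.953) and Prss51 (0.927). An r over 0.9 with the member was reached by 25 probes for Bdnf, 68 for Ntrk3, 54 for Ntrk2 and 11 for Ngfr, so these genes are the top of a longer series. They describe 8 arrays only, which share array brightness and dissection. The group means were not removed, so a shared group difference, as for Bdnf with Nudt3 and Nptx1, enters r. These r were not recomputed without WT replicate 2, the highest array for Bdnf, Ntrk2 and Ntrk3.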

How the data were processed

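RNA was amplified, coupled to Cy5 and hybridised to a TORAY chip, per the labels' protocols. The deposited scanner files give a median spot intensity per spot, not normalised, per the file headers, while the merging of its 3 scan gains is not described. The authors' deposited value table, a linear intensity whose median is 25 on each array, served as an alternative. A second intensity column, headed as background, was not used. Background was corrected by normexp (offset 50) over all spots, controls too. Log2 values of the 23473 probes were quantile normalised. Probes above the 95th percentile of blank spots on at least 4 arrays were kept, leaving out 2239 dim probes and 84 with a spot marked bad at any gain, so 21150 were tested. The test was limma (version 3.58.1, R 4.3.3), with Benjamini-Hochberg adjustment over all tested probes and a threshold of 0.05; single values also had exact two-sided permutation tests. The script was tested on simulated data. The number of arrays limits the precision, and the offset makes differences of dim probes too small.

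Members, lists and tests were chosen with earlier results of these data known. Named are the members, Cacna1g, genes of each list past the threshold or else the 3 with the smallest p, 3 genes between Cacna1g and Ngfr, and 3 genes most like each member. Ntf5, Fos, Nr4a1, Arc, Cort, Egr1, Inhba, Dusp6, Npas4, Spred1, Ier2, Sik1, Tac1 and single marker genes fall outside this rule. They were named after their values were seen. Alternatives were other background corrections and scalings, other filters, blocks and left-out arrays; the scan gain sets were added after the data were seen. Same-numbered WT and Cav3.1 KO arrays did not deviate together, so the numbers were not taken as pairs. Gene names come from the platform annotation, and RefSeq sequences and gene order from GRCm38.p6, while no source used here names a build for the array.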

Additional observations from a re-analysis of the deposited data

How the results depend on the processing

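Bdnf kept its negative sign in all 24 alternatives, from -0.745 to -0.335, and leaving out 1 array at a time gave -0.579 to -0.422. Since its groups did not overlap, fits that only left out or blocked arrays could not change this sign. Other filters and variance settings left the difference at -0.509. Only other background corrections, scalings and the authors' values could have changed the sign. Its limma adjusted p-values ran from 0.107 to 0.539 in alternatives with more than 1 array per group. Ntrk3 was also negative in each of the 24, from -0.229 to -0.002. Ntrk2, close to 0, turned negative with median scaling (-0.006), with the authors' value table (-0.023), within the arrays of lower chip number (-0.039) and within the steep gain set (-0.026), and ran from -0.019 to 0.095 when 1 array was left out. Ngfr turned with the gain set as a block (-0.004) and within the steep gain set (-0.009), was 0 with gain set and chip number as blocks, and ran from -0.002 to 0.013 when 1 array was left out. No member passed the threshold in any of these. The cause was not tested.

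Over all probes, the 61 calls became 40 after blank subtraction, 36 with median scaling, 31 with the authors' value table, 7 within the arrays of lower chip number, 17 without Cav3.1 KO replicates 2 and 3, and 16 to 49 with 1 array left out. They rose to 80 with a normexp offset of 16 and to 81 with an intensity trend and robust variance, and were 44 to 60 under the other settings without a gain set or replicate block. They became 23 with the gain set as a block and 3 with gain set and chip number as blocks. Within either gain set, with 4 arrays, limma made 0 calls, with 2093 and 1422 unadjusted p-values under 0.05. Of the lists, the ligand and processing list had 0 to 1 calls with 1 array left out (Plat, without Cav3.1 KO replicate 1). The activity-responsive list had 0 to 1 (Ier2, without WT replicate 2) and 1 with an intensity trend and robust variance (Atf3, a dim probe). With the replicate block the whole table had 8 calls and the Bdnf difference was -0.509 (adjusted p 0.463). The pairing was not borne out: residuals of same-numbered arrays correlated by -0.115 to 0.011, and 0 of 8 arrays correlated best with their own number. Low signal limits Ngfr most.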
